A study of Homo sapiens with 40 samples.

Results

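BEZ235 was compared with GDC0941 at the concentration labelled IC90 in A2058 cells, an established human melanoma line. The comparison was chosen by the array titles: 4 arrays of BEZ235 at IC90 and 4 of GDC0941 at IC90 (spelled GCD0941 in the titles), so 8 of the 40 arrays of the series. BEZ235 (dactolisib) is an imidazoquinoline that inhibits both class I PI3K and the mTOR kinase, and GDC0941 (pictilisib) is a thienopyrimidine that inhibits class I PI3K, so the comparison asks what mTOR inhibition adds to PI3K inhibition. All cells were treated once and taken after 24 hours. The other groups used here were BEZ235 at IC50 and at a level labelled max, GDC0941 at IC50 and max, and cells given the vehicle DMSO, each on 4 arrays described as biological replicates. The remaining 12 arrays carried BKM120, another PI3K inhibitor, and entered no comparison. They entered only the shared estimate of the spread, the choice of each gene's probe set and the filter on dim genes. An IC90 is named for its effect and not for an amount: the labels carry no molar concentrations, so equal names do not mean equal doses, and a compound can hit targets beyond those it is named for.

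PI3K makes the membrane lipid that recruits the kinase AKT. AKT holds the FOXO transcription factors out of the nucleus and, through the TSC complex, allows the GTPase RHEB to turn on mTOR complex 1, which drives ribosome production, translation, lipid synthesis and nucleotide synthesis and restrains autophagy and lysosome genes. Another complex, mTORC2, phosphorylates AKT in turn. mTOR complex 1 also favours processing of the SREBP factors, which leave the endoplasmic reticulum when sterols are low, unless INSIG proteins hold them there, and switch on the genes of cholesterol and fatty acid synthesis. In melanoma this pathway runs beside the RAF, MEK and ERK cascade, which is often mutated there.

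The sequences shown first are the promoters of a set of genes that were lower with BEZ235, those of cholesterol synthesis, because so many of its members moved one way. Each covers 250 bases before and 50 after the start of the gene in the RefSeq annotation of GRCh38.p14, read 5′ to 3′ on the gene's own strand, with the CCAAT box (CCAAT, or ATTGG where it lies on the other strand) and the E-box CACGTG in capitals. HMGCS1 makes HMG-CoA, the substrate of the rate-limiting enzyme of the route, INSIG1 is the sterol-sensing retention protein, and STARD4 carries cholesterol between membranes. HMGCS1 lies at chr5:43313363-43313662 on the minus strand, INSIG1 at chr7:155297628-155297927 on the plus strand, and STARD4 at chr5:111512486-111512785 on the minus strand.
HMGCS1: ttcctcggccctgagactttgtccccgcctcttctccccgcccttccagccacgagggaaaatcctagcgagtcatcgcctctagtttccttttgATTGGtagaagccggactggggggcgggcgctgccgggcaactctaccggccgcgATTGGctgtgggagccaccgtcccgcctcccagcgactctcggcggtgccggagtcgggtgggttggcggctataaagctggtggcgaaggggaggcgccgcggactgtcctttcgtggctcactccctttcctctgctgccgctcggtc
INSIG1: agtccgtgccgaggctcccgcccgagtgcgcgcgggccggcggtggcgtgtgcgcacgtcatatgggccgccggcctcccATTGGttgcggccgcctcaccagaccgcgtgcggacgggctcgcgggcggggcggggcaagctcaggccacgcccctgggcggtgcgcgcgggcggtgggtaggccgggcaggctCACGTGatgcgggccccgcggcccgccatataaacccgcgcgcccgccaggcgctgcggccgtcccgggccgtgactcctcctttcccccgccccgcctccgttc
STARD4: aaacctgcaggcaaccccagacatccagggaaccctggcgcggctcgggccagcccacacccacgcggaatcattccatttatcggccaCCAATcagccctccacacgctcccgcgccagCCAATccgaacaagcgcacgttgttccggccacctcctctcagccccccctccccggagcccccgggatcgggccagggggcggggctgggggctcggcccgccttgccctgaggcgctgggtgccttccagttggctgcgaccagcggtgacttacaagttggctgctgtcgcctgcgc

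The CCAAT box, the letters bound by the factor NF-Y, stood on either strand in 15 of the 17 cholesterol gene promoters found in the table, or 88.2%. It stood in 35.7% of all 27305 promoters of the table and in 36.9% of the 9780 promoters of genes tested here. Among the other gene lists scanned, it stood in 29 of 52 promoters of DNA replication genes (55.8%) and 7 of 13 of tubulins (53.8%). It stood in 6 of 13 of fatty acid synthesis genes (46.2%) and 12 of 36 of ribosomal protein genes (33.3%). In HMGCS1 it began 155 and 100 bases before the start, in STARD4 161 and 130 bases before, and in INSIG1 170 bases before, with an E-box at 55 bases before. A sterol element written TCACNCCAC, searched on both strands, was found in 1 of the 17 windows, that of SREBF2, against 1.15% of all promoters and 1.04% of those of genes tested. CACGTG was found in 3 of the 17, those of INSIG1, LSS and SC5D, against 7.43% of all and 10.5% of those of genes tested. None of the 3 motifs contains another, and these are letter matches within a fixed window, with nothing measured about binding.

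The signal is the deposited array intensity, which has no unit and was scaled on every array to a common trimmed mean. Differences are given as log2(signal + 16), BEZ235 minus GDC0941, so that a positive value means higher with BEZ235 and 1 unit is a 2-fold difference, with low signals pulled toward 0. The 95% intervals are those of the fit for single genes, not adjusted for the number of genes. A gene was called when its Benjamini-Hochberg adjusted p from limma was under 0.05 over the 11865 genes tested.

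The 8 arrays were alike in quality with an exception that moved with the groups. Array pairs within a group correlated at 0.994 to 0.996 over all genes tested and pairs across the groups at 0.976 to 0.979, and no arrays were identical. The ratio of 3′ to 5′ signal for ACTB, a sign of how full-length the labelled RNA is, was 2.20 to 2.33 in BEZ235 and 1.82 to 2.06 in GDC0941, without overlap (exact permutation p = 0.0286, 2-sided, the smallest 4 against 4 allows; 0.114 after adjustment over 4 quality measures). The same ratio for GAPDH was 1.16 to 1.20 in both. The median signal was 13.1 to 14.2 in BEZ235 and 12.4 to 13.4 in GDC0941, with overlap (exact permutation p = 0.0571, 0.114 after adjustment). The share of probe sets over a signal of 50 was 36.1% to 36.9% in BEZ235 and 36.0% to 36.4% in GDC0941. The part of RNA quality in the results was not tested. Of 8 melanoma markers listed, 7 were named on the array, all were above the filter, and their summed signal was 11101 to 12314 in BEZ235 and 11894 to 12448 in GDC0941. Of 24 markers of other cell types, 23 were named, and the summed signal of these 23 was 2800.8 to 2936 in BEZ235 and 2584 to 2897 in GDC0941. Under a signal of 20 on all 8 arrays were 12 of them: PTPRC, CD3E, CD79A, CD14 and HBB of blood cells, VWF and CDH5 of endothelium, EPCAM and KRT5 of epithelium, COL1A2, DES and GFAP. LYZ, a myeloid marker, stood at 132 to 158 in BEZ235 and 162 to 274 in GDC0941, and LUM, of fibroblasts, and KRT18, of epithelium, were the brightest. BEZ235 IC50 replicate 3 stood apart from all other arrays, with an ACTB ratio of 27.2 and a GAPDH ratio of 3.44. Medians of differences at IC50 are therefore given without it in the text, and the total counts at IC50 both ways. In bulk RNA, fewer cells of a kind and less RNA per cell cannot be told apart.

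BEZ235 differed widely from GDC0941, mostly by small amounts. Of 11865 genes, 5100 were called, 2724 higher with BEZ235 and 2376 lower, which is 43.0% of all genes tested, 23.0% higher and 20.0% lower. Only 146 of them differed by 2-fold or more, or 1.23%, 58 higher and 88 lower. The median difference over all genes was 0.02. Groups did not overlap for 5490 genes, or 46.3%, and 4525 genes, or 38.1%, were both called and without overlap. Since such a share of all genes was called, the counts for each gene group below are read against these percentages.

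Against DMSO, 6523 genes (55.0%) were called with BEZ235 at IC90, 30.8% higher and 24.1% lower, and 2991 (25.2%) with GDC0941 at IC90, 15.2% higher and 9.97% lower. Both comparisons use the same 4 DMSO arrays. Among the 5100 genes that differed between the compounds, 2945 (57.7%) were called against DMSO for BEZ235 and not for GDC0941, and 439 (8.61%) for GDC0941 and not for BEZ235. A further 995 (19.5%) were called the same way for both, and in 928 of those BEZ235 moved them farther. The compounds moved 161 genes (3.16%) in opposite directions, 54 of them higher with BEZ235 and lower with GDC0941, and 107 lower with BEZ235 and higher with GDC0941. Among the 146 genes apart by 2-fold or more, 31 (21.2%) were moved in opposite directions, 26 of them lower with BEZ235 and higher with GDC0941. Between the compounds at max, 4346 genes (36.6%) were called, 2222 higher (18.7%) and 2124 lower (17.9%). At IC50 it was 4021 (33.9%), 2163 higher (18.2%) and 1858 lower (15.7%), or 3995 without BEZ235 IC50 replicate 3, 1944 higher and 2051 lower.

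**Figure D1:**
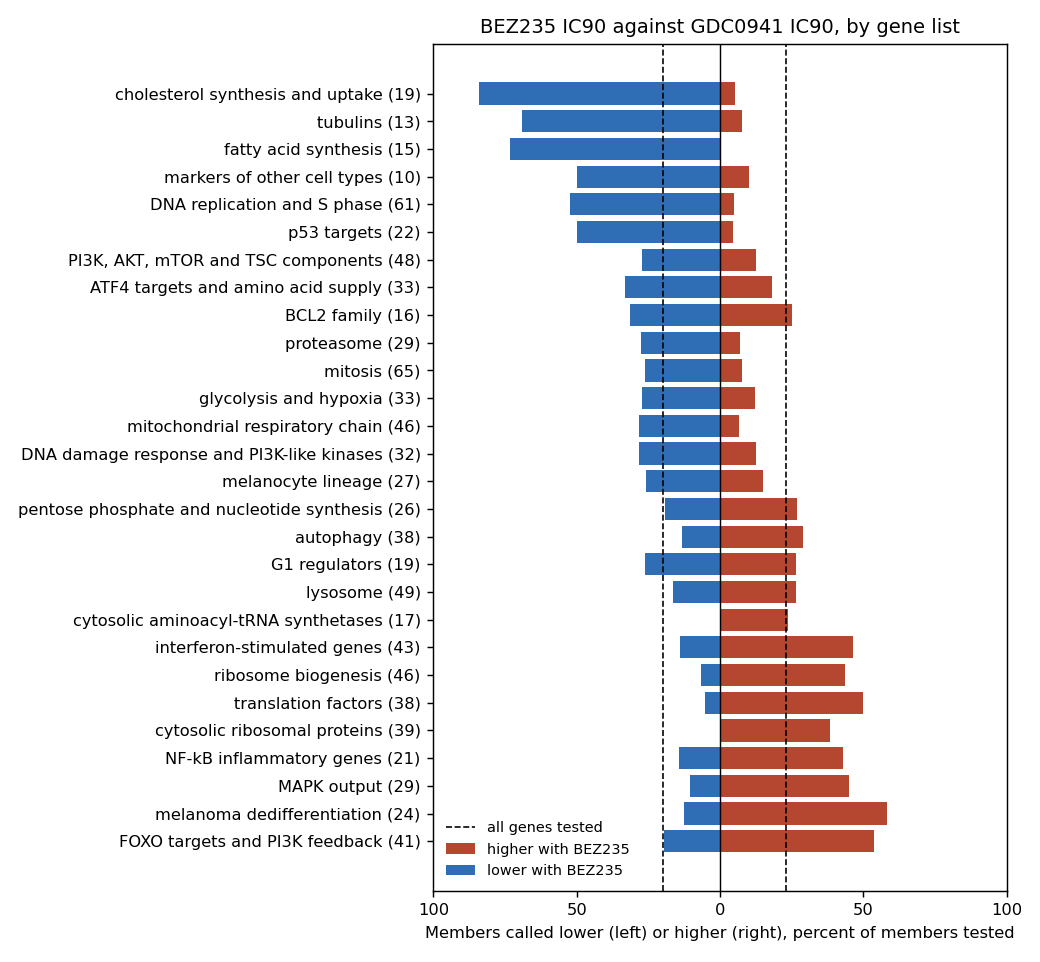
Share of tested members called higher (right) or lower (left) with BEZ235 than with GDC0941 at IC90, for 28 gene lists ordered by their median difference, with the number of members tested in brackets. Dashed lines mark the shares over all genes tested, 23.0% higher and 20.0% lower; cholesterol synthesis and uptake lies farthest to the lower side, with 16 of 19 members lower.

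Cholesterol synthesis and uptake genes were lower with BEZ235. Of the 25 genes listed, 19 were named on the array and tested, 16 were called lower and 1 higher, and the median difference was -0.76, against 0.02 over all genes. Against DMSO the median was -0.44 with BEZ235, with 12 members lower and 3 higher, and 0.32 with GDC0941, with 14 higher. HMGCS1 had signals of 404, 376, 439 and 388 in the BEZ235 arrays, against 1298, 1335, 1374 and 1274 in the GDC0941 arrays. The groups are far apart, and the difference was -1.68 (95% interval -1.79 to -1.57, adjusted p = 4.2e-24). STARD4 had 28.9, 33.5, 31.6 and 25.7 in the BEZ235 arrays, against 189.8, 165, 177 and 199 in the GDC0941 arrays. Every BEZ235 array was well under every GDC0941 array, with a difference of -2.11 (-2.27 to -1.96). ACAT2, which makes acetoacetyl-CoA in the cytosol, had 381, 448, 392 and 377 with BEZ235 and 1249, 1378, 1282 and 1302 with GDC0941, a difference of -1.67. INSIG1 had 584, 444, 569.8 and 544 with BEZ235 and 1409, 1498, 1423 and 1426 with GDC0941, a difference of -1.41, and DHCR7, the last enzyme of the route, stood at -1.35 (adjusted p = 8.8e-14).

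SREBF2 encodes the SREBP factor that drives these genes. Its signals were 198, 170.4, 215 and 182 with BEZ235, against 342, 350.9, 341 and 316 with GDC0941, without overlap, for a difference of -0.77 (adjusted p = 1.7e-10). Against DMSO, SREBF2 stood at 0.04 with BEZ235 (adjusted p = 0.64) and at 0.82 with GDC0941 (adjusted p = 1.3e-10). The members not called were PMVK at 0.19 (adjusted p = 0.11) and FDPS at -0.14 (adjusted p = 0.18). The member called higher was IDI1, at 0.37 on its only probe set not marked as cross-hybridising, which was dim at a mean of 25.1 with BEZ235 and 15.8 with GDC0941. Its brighter cross-hybridising probe sets went the other way, with means of 578 and 610.4 with BEZ235 against 1372 and 1613 with GDC0941, so its direction is uncertain. At the other levels the median of the list was -0.65 at IC50 and -0.81 at max, where 17 of 19 were lower.

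**Figure D2:**
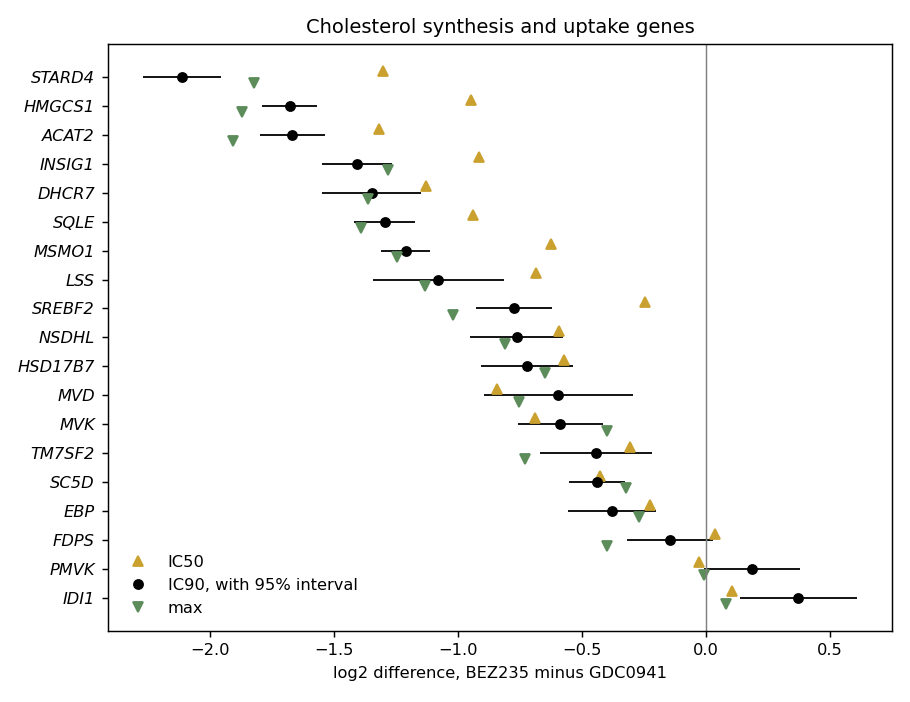
Log2 difference, BEZ235 minus GDC0941, for the 19 cholesterol genes tested, at IC90 (circles, with 95% intervals from the limma fit), at IC50 (triangles up, over all 4 BEZ235 arrays) and at max (triangles down). STARD4, HMGCS1 and ACAT2 lie lowest, between -2.11 and -1.67 at IC90; PMVK and IDI1 lie above 0.

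Fatty acid synthesis genes were also lower. Of 15 tested, 11 were called lower, with a median of -0.26, and 7 were called lower without BEZ235 IC90 replicate 1. INSIG1 stands in both lists. ELOVL6, which lengthens palmitate, had 562, 595, 609.7 and 629.9 with BEZ235 and 1244, 1113, 1213 and 1271 with GDC0941, a difference of -0.99 (adjusted p = 1.6e-13). SREBF1, the factor for fatty acid genes, stood at -0.84, and ACACA, the rate-limiting acetyl-CoA carboxylase, at -0.52. Against DMSO the list's median was -0.25 with BEZ235 and 0.03 with GDC0941. At max the median difference was -0.39.

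Genes of the PI3K, AKT and mTOR pathway itself were called about as often as genes in general: 6 of 48 tested were higher and 13 lower. The member that differed most, and the largest difference of all genes eligible to be named, was PIK3R3, a regulatory subunit of class I PI3K. Its signals were 68.2, 66.7, 78.5 and 66.2 with BEZ235, against 423, 401, 494 and 414 with GDC0941. Every BEZ235 array lay far below every GDC0941 array, and the difference was -2.38 (SE 0.15, adjusted p = 2.1e-15). At max the difference was the same size, -2.37. The 3 sestrins, which restrain mTOR complex 1 when amino acids or energy are short, were lower together: SESN3 at -1.46, SESN2 at -0.82 and SESN1 at -0.73. SESN3 had 227, 255, 260.4 and 271 with BEZ235 and 669.9, 712, 793 and 729 with GDC0941. TSC2, the catalytic side of the TSC complex, was higher with BEZ235, at 215, 225, 219 and 204 against 118, 122, 136 and 109 with GDC0941, a difference of 0.76. PDPK1, which phosphorylates AKT, was higher by 0.41, RPS6KA1, a kinase of ribosomal protein S6 downstream of ERK, was lower, at -0.53, and PHLPP2, an AKT phosphatase, was lower, at -0.45. PIK3CB, a catalytic PI3K subunit, stood at -0.26 (adjusted p = 2.3e-04).

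MTOR, RPTOR, AKT1, RHEB and RPS6KB1 did not differ by enough to be called at the mRNA level. MTOR stood at -0.30 (adjusted p = 0.054; 95% interval -0.55 to -0.04), RPTOR at -0.18 (-0.41 to 0.04), AKT1 at -0.10 (-0.37 to 0.17), RHEB at -0.04 (-0.14 to 0.06) and RPS6KB1 at -0.10 (-0.20 to 0.01). DEPTOR, an mTOR inhibitor protein, differed by 0.14 (-0.17 to 0.45), while each compound raised it against DMSO, by 1.37 with BEZ235 and 1.23 with GDC0941. MTOR was called under 5 alternative settings, with adjusted p between 0.017 and 0.046. A missed threshold does not show that these genes were alike. The intervals use the spread within all 10 groups, BEZ235 IC50 replicate 3 included. For AKT1 the SD was 0.02 with BEZ235 and 0.05 with GDC0941 at IC90, against 0.61 with BEZ235 at IC50.

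FOXO targets and genes of PI3K feedback were higher with BEZ235. Of 41 tested, 22 were called higher and 8 lower, and the median difference was 0.23. The lower calls numbered 4 without BEZ235 IC90 replicate 4 and 5 without GDC0941 IC90 replicate 3 or 4. Among the lower members were SESN3 and SESN1, given above. TXNIP, an inhibitor of thioredoxin and of glucose uptake, had 1449, 1413, 1464 and 1486 with BEZ235 and 573, 612, 589 and 577 with GDC0941. Its arrays did not overlap, and the difference was 1.28 (adjusted p = 2.4e-20). Both compounds raised it over DMSO, by 2.20 with BEZ235 and by 0.91 with GDC0941. Its relative ARRDC4, also a suppressor of glucose uptake, differed by 1.23, and with GDC0941 it stood at -0.02 against DMSO, which was not called. BCL6, a FOXO-driven repressor, was higher by 0.81. At max the list's median was 0.05, with 11 higher and 9 lower.

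Among BCL2 family genes, 4 of 16 tested were higher and 5 lower. BMF, a pro-death BH3-only protein, had 139, 137, 122 and 126 with BEZ235 and 39.9, 54.9, 65.8 and 48.4 with GDC0941, a difference of 1.12 (adjusted p = 1.7e-09). Each compound raised it over DMSO, by 2.38 with BEZ235 and 1.26 with GDC0941. HRK, another BH3-only gene, was higher by 0.83 (adjusted p = 0.0015). BCL2L2, which protects from death, was higher by 0.41. PMAIP1, the BH3-only gene NOXA, was lower, at -0.61, the pore-forming BAX at -0.57, and the protective BCL2A1 at -0.47. BCL2L11, or BIM, a FOXO target, stood at 0.09 (adjusted p = 0.54). Pro-death and protective members were found on both sides.

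**Figure D3:**
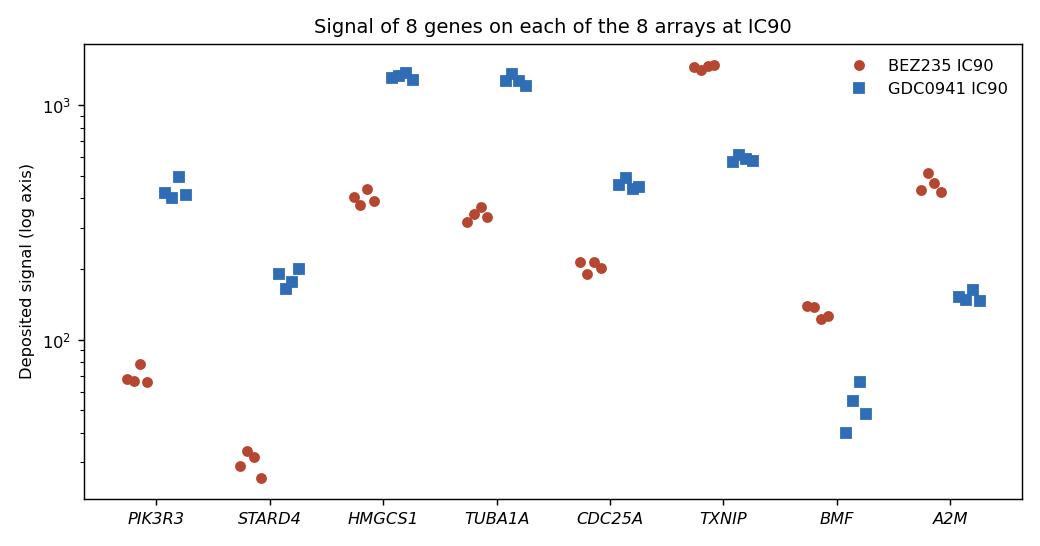
Deposited signal of 8 genes on each array at IC90 (log axis): BEZ235 circles on the left of each pair, GDC0941 squares on the right, 4 arrays each. For all 8 genes, no BEZ235 array overlaps a GDC0941 array; PIK3R3, STARD4, HMGCS1, TUBA1A and CDC25A are lower with BEZ235 and TXNIP, BMF and A2M higher.

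DNA replication and S phase genes were lower with BEZ235. Of 61 tested, 32 were lower and 3 higher, with a median of -0.20. Against DMSO the median was -0.25 with BEZ235 and -0.08 with GDC0941. CDC25A, the phosphatase that frees CDK2, had 214, 190.4, 215 and 201 with BEZ235 and 456, 488, 438 and 446 with GDC0941. The arrays were far apart, and the difference was -1.10 (adjusted p = 8.6e-18). ASF1B, a histone chaperone, was lower, at -0.93, E2F7, an E2F-family repressor, at -0.84, and CDC6, which loads the replicative helicase, at -0.81. CDT1, the partner of CDC6 in that step, went the other way: 212, 179.9, 237 and 229 with BEZ235 and 77.5, 84.2, 83.1 and 77.7 with GDC0941, a difference of 1.25. The list's median was -0.04 at max and -0.06 at IC50.

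G1 regulators moved in both directions, 5 of 19 higher and 5 lower. SKP2, which marks the CDK inhibitor p27 for destruction, was lower, at -1.11, with 85.4, 96.3, 95.7 and 96.7 in BEZ235 arrays and 245, 206, 227 and 207 in GDC0941 arrays. CCND3, cyclin D3, was lower, at -1.07, and CDKN1A, the CDK inhibitor p21, at -0.92. RB1, the retinoblastoma protein, was higher by 0.47. Mitosis genes were called 17 lower and 5 higher of 65 at IC90, and 11 lower without BEZ235 IC90 replicate 1 or without GDC0941 IC90 replicate 4. At max 3 were lower and 14 higher, and the median was 0.07, against -0.06 at IC90. SPC25 and KNL1, which join microtubules to kinetochores, were lower, at -0.45 and -0.38, and CDK1, the mitotic kinase, at -0.35. Against DMSO, 46 of the 65 were lower with BEZ235 and 43 with GDC0941.

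Tubulin genes, which encode the subunits of microtubules, were mostly lower with BEZ235: of 13 tested, 9 were lower with BEZ235 and 1 higher, with a median of -0.48. TUBA1A, an alpha tubulin, had 319, 342, 366 and 334 with BEZ235 and 1265, 1357, 1272 and 1208 with GDC0941, a difference of -1.86 (adjusted p = 1.5e-14). Its direction was opposite between compounds, -1.33 with BEZ235 and 0.53 with GDC0941 against DMSO. TUBB2B and TUBB2A, beta tubulins, were lower, at -1.15 and -0.59, TUBB4A at -0.57 and TUBG1, the gamma tubulin that seeds microtubules, at -0.71. TUBB, the main beta tubulin, stood at -0.02 (-0.11 to 0.07) and TUBB3 at -0.11 (-0.23 to 0.02). At max the list's median was -0.06. TUBB2B is an example: in log2 signal it was 7.77 ± 0.12 with BEZ235 and 8.20 ± 0.17 with GDC0941 at max, and 7.70 ± 0.07 with BEZ235 and 8.86 ± 0.14 with GDC0941 at IC90 (mean ± SD, n = 4 each).

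**Figure D4:**
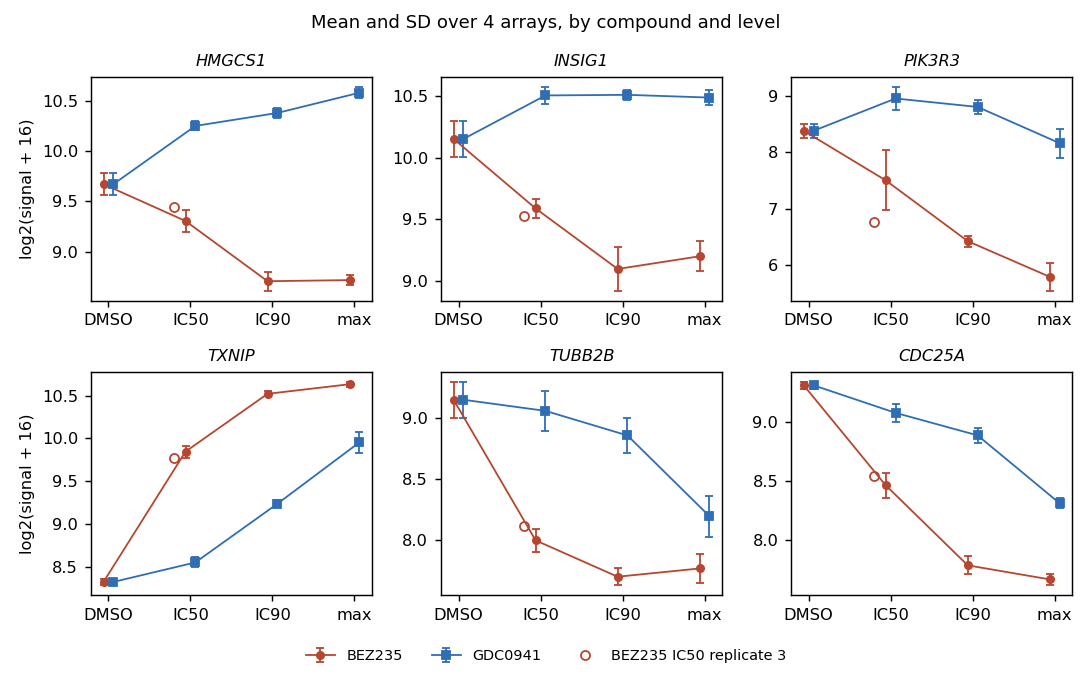
Mean log2(signal + 16) with SD over 4 arrays for 6 genes in DMSO and at IC50, IC90 and max, BEZ235 circles and GDC0941 squares; the open circle is BEZ235 IC50 replicate 3, whose 3′ to 5′ ratios stood apart. HMGCS1 and INSIG1 fall below DMSO with BEZ235 and lie above it with GDC0941; TXNIP, TUBB2B and CDC25A with GDC0941 at max come closer to BEZ235.

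Targets of p53 were lower with BEZ235 more often than higher: 11 of 22 were lower and 1 higher, with a median of -0.18. TIGAR, which lowers a sugar phosphate that drives glycolysis, had 117, 116, 96.3 and 98.9 with BEZ235 and 288, 283, 272 and 310.4 with GDC0941, a difference of -1.31 (adjusted p = 2.0e-13). TP53INP1, a stress protein of the p53 route, was lower, at -0.97, and CDKN1A, SESN1 and SESN2, given above, belong here too. CYFIP2, part of the actin-regulating WAVE complex, was the member called higher, by 0.97. DNA damage genes were called 9 lower and 4 higher of 32. LIG4, the ligase of end joining, was lower, at -0.88 and FANCB, of the Fanconi core complex, at -0.80.

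Protein synthesis genes tended higher with BEZ235. Translation factors were called 19 higher and 2 lower of 38, and ribosome biogenesis genes 20 higher and 3 lower of 46, with medians of 0.15 and 0.13. POLR1E, a subunit of RNA polymerase I, had 906, 961, 902 and 881 with BEZ235 and 477, 471, 452 and 405 with GDC0941, a difference of 0.99 (adjusted p = 1.1e-16). NOB1, the nuclease that trims the small-subunit rRNA, was higher by 1.05. EIF3G and EIF3D, subunits of initiation factor eIF3, were higher by 0.52 and 0.35, and EIF4EBP1, the mTOR-regulated inhibitor of cap-dependent initiation, was lower, at -0.23. Of 39 cytosolic ribosomal protein genes tested, 15 were called higher at IC90 and the median was 0.15. That count ran between 4 and 29 over the alternative settings, and the median was 0.04 after quantile normalization. It was 4 or 6 without any 1 of BEZ235 IC90 replicates 1 and 2 and GDC0941 IC90 replicates 1 and 4. At IC50, 37 were higher, or 22 without BEZ235 IC50 replicate 3. At max limma called 0, with 4 higher at an unadjusted p under 0.05 and a median of 0.07. Of 17 cytosolic aminoacyl-tRNA synthetases, 4 were higher; SARS1, which loads serine, was higher by 0.32.

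Genes of amino acid supply and of the ATF4 stress response were called 11 lower and 6 higher of 33. PSAT1, of serine synthesis, had 626, 597, 616 and 628 with BEZ235 and 1063, 1006, 944 and 1070.3 with GDC0941, a difference of -0.71 (adjusted p = 1.8e-14). NUPR1, a stress-response nuclear protein, was lower, at -0.70, while DDIT3, the stress factor CHOP, was higher by 0.52. Against DMSO the list's median was -0.44 with BEZ235 and -0.30 with GDC0941. At max, 8 were lower and 11 higher, with a median of 0.02. Glycolysis and hypoxia genes were called 9 lower and 4 higher of 33, led by ALDOC, an aldolase, at -0.87. In the pentose phosphate and nucleotide list, 7 of 26 were higher and 5 lower, or 3 lower without GDC0941 IC90 replicate 2; IMPDH2, of guanine nucleotide synthesis, was higher by 0.43.

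Lysosome genes were called 13 higher and 8 lower of 49 and autophagy genes 11 higher and 5 lower of 38, shares near those of all genes. MANBA, lysosomal beta-mannosidase, was higher by 0.88, and CTSF, cathepsin F, by 0.67. GLA and NAGLU, lysosomal glycosidases, were lower, at -0.56 and -0.59. The autophagy members ran from TP53INP1, at -0.97, to VMP1, at 1.21. ULK1, the kinase that starts autophagy and that mTOR complex 1 inhibits, was higher by 0.57 (adjusted p = 0.002), and the autophagy receptor CALCOCO2 by 0.60. At IC50, without BEZ235 IC50 replicate 3, ULK1 stood at -0.04 and CALCOCO2 at 0.05.

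Genes read as output of the RAF, MEK and ERK cascade were called 13 higher and 3 lower of 29 with a median of 0.19, and genes of melanoma dedifferentiation 14 higher and 3 lower of 24 with a median of 0.22. Against DMSO the median of the dedifferentiation list was -0.05 with BEZ235 and -0.37 with GDC0941. CCN1, a matricellular protein, had the largest positive difference of the dedifferentiation list, 1.12 (adjusted p = 1.5e-09). Its signals were 450.2, 433, 537 and 491 with BEZ235 and 217, 198, 225 and 202 with GDC0941. FN1, fibronectin, was higher by 0.78, WNT5A by 0.64 and FOSL1, an AP-1 subunit, by 0.69. KLF10, an early-response factor, had the largest positive difference of the ERK output list, 0.86. THBS1, thrombospondin, was higher by 0.70, though 1 of its other probe sets pointed the other way. JUN, another AP-1 subunit, was lower, at -0.59, and stands in both lists, so their counts are not separate. In the melanocyte list, 4 of 27 were higher and 7 lower. MITF, the lineage factor, stood at -0.07 (-0.16 to 0.01), SOX10 at 0.03 and TYR at -0.08, none of them called, though MITF was called at -0.27 (adjusted p = 0.0010) when its probe sets were averaged. MLANA and PMEL were higher by 0.38 and 0.24, and S100B and TRPM1 were lower, at -0.64 and -0.56. At max, 16 of the 27 were lower.

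Interferon-stimulated genes were called 20 higher and 6 lower of 43, with a median of 0.12. IFIH1, a sensor of double-stranded RNA, was higher by 0.75 and DDX60, a helicase that aids such sensors, by 0.70. GBP2, a guanylate-binding protein, went against them, at 124, 119, 145 and 109.6 with BEZ235 and 318, 296, 286 and 287 with GDC0941, a difference of -1.16 (adjusted p = 1.0e-12). In the NF-kB list, 9 of 21 were higher and 3 lower. IL24, a cytokine, was higher by 1.26 and ICAM1, an adhesion molecule, by 0.54, while CCL2, a monocyte chemokine, was lower, at -1.04. Mitochondrial respiratory chain genes were called 13 lower and 3 higher of 46, and proteasome genes 8 lower and 2 higher of 29. The respiratory chain genes called higher numbered 5 without BEZ235 IC90 replicate 3. NDUFB6, of complex I, was lower, at -0.58, ATP5MC1, of ATP synthase, at -0.41, and the proteasome subunits PSMD2 and PSMD11 at -0.46 and -0.43, while ESRRA, a factor for respiratory genes, was higher by 0.44. Of the markers of other cell types, 10 were tested and 5 were lower and 1 higher: the collagens COL3A1 and COL1A1 at -0.95 and -0.59, and the keratin KRT18 higher by 0.67.

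Outside the lists, the largest rises and falls belonged to genes of several kinds. DHRS3, a retinaldehyde reductase, had 412, 441, 401 and 459.6 with BEZ235 and 169.8, 131, 83.1 and 132 with GDC0941, a difference of 1.65, and both compounds lowered it against DMSO, to a difference of -0.88 with BEZ235 and -2.53 with GDC0941. BCAN, a brain proteoglycan, had 237, 216, 234 and 249 with BEZ235 and 60.6, 68.5, 69.5 and 59.2 with GDC0941, a difference of 1.64, and moved in opposite directions, 1.18 with BEZ235 and -0.46 with GDC0941. A2M, a protease inhibitor, was higher by 1.50, DACT1, a Wnt pathway modulator, by 1.44, and AGT, angiotensinogen, by 1.33. MFSD2A, a lysophospholipid transporter, had 31.1, 31.0, 32.8 and 41.3 with BEZ235 and 208, 208, 185 and 172 with GDC0941, a difference of -2.06. FGFBP3, an FGF carrier, was lower, at -1.95, KCNG4, a potassium channel subunit, at -1.64, ENPP2, the lysophosphatidic acid-making enzyme autotaxin, at -1.47, and ADAM19, a metalloprotease, at -1.46. All of these were called and did not overlap between the groups.

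Most of the differences ran the same way at the other labelled levels, which use different arrays. Of the 5100 genes called at IC90, 3159 (61.9%) were called the same way at max, which is 72.7% of the calls at max, and 35 the opposite way. At IC50 it was 2489 (48.8%, and 61.9% of the calls at IC50), and 57 were called the opposite way. In the fit without BEZ235 IC50 replicate 3, where 6137 genes were called at IC90, 2875 of them (46.8%) were called the same way at IC50 and 75 the opposite way. All 146 genes at 2-fold or more at IC90 had the same sign at max, and 145 were called there. Their median size was 1.13 at IC90 and 0.96 at max; they were chosen by size at IC90, which by itself favours a smaller size at max. At IC50, 141 of the 146 had the same sign, and 144 without replicate 3.

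The sizes did change with the level for some genes. The difference at max and the difference at IC90 were themselves apart, by the interaction term of the limma fit, for 366 genes, or 3.08%, with 1.78% above 0 and 1.31% below. Of these, 276 were called at IC90. In 230 of those the change ran against the sign of the IC90 difference, so the difference shrank or reversed at max. In 46 the change ran with that sign, so the difference was larger at max. Being called at IC90 likewise favours a smaller difference at max, so this split is a description only. TXNIP differed by 1.28 at IC90 and 0.68 at max (change -0.60, adjusted p = 1.1e-05). For BMF it was 1.12 at IC90 and 0.34 at max (adjusted p of the change 0.0061), and for E2F7 -0.84 and -0.07 (0.0012). JUN widened, with -0.59 at IC90 and -1.52 at max (5.0e-04), as did IL24, at 1.26 and 1.75 (0.015). PIK3R3, at 0.01, and HMGCS1, at -0.19, did not change by enough to be called (0.99 and 0.21).

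**Figure D5:**
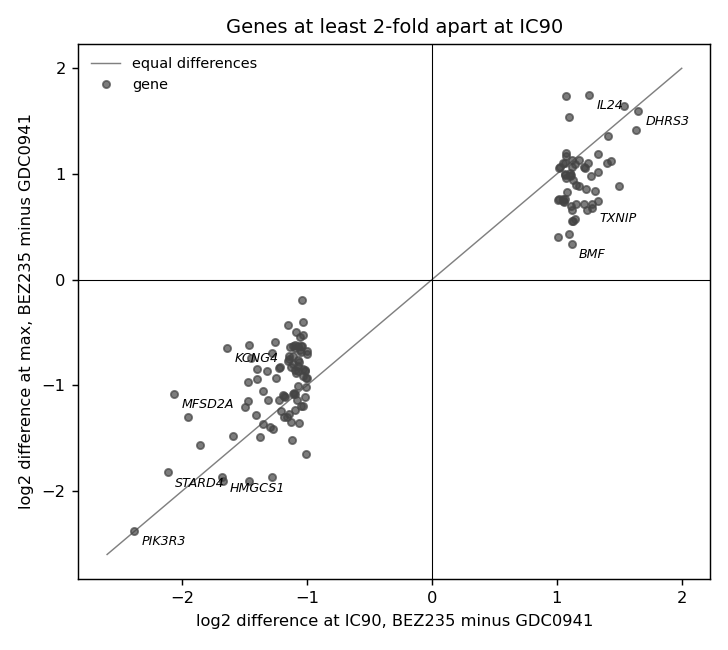
Log2 difference, BEZ235 minus GDC0941, at IC90 (horizontal) and at max (vertical) for the 146 genes called at 2-fold or more at IC90; the grey line marks equal differences. All 146 points have the same sign on both axes.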

How the data were processed

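RNA from 40 cultures of A2058 cells was profiled on 1-colour arrays, 1 array a sample, in 10 groups of 4. Per the labels' protocols, 50 ng of total RNA was amplified linearly and labelled with biotin. The deposited values are array intensity values, made with MAS5 per the submitters' processing notes (its version is not given in the sources used here). On every array the trimmed mean, leaving out 2% at each end, was the same, so a common scaling was applied by the authors. Of 54675 probe sets, 41091 carried 1 gene symbol in the platform annotation, 1801 several and 11721 none; 62 were control probe sets.

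From these, log2(signal + 16) was computed. Each gene was represented by its probe set with the highest mean, leaving out cross-hybridising designs where another existed, which gave 19775 genes. Tests covered the 11865 genes whose mean signal lay above the 40th percentile. One model with 10 groups (30 residual degrees of freedom) was fitted with limma 3.58.1 in R 4.3.3 with a trended prior, with Benjamini-Hochberg adjustment over all genes tested and a threshold of 0.05. No batch is labelled. The arrays number 4 a group, which limits the precision; that cultures were separate rests on the labels.

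Genes were named by rule: the 15 with the largest difference in each direction and up to 5 per list, called and with groups that did not overlap, plus any member of the PI3K and mTOR, tubulin and BCL2 lists; some are omitted for space, and other list members are given as values. The members, the 28 lists, the promoter motifs and the shown promoters were chosen with earlier results of these data known. Lists are described by counts and medians with no test of their own. Alternatives tried were other pseudocounts (1 and 64), no filter, a filter at the 60th percentile, the mean over probe sets and quantile normalization. Others were the 8 IC90 arrays alone, all arrays but BEZ235 IC50 replicate 3, a replicate block, and each of those 8 left out in turn. The brightest probe set whatever its design was chosen after seeing the data. The fit was also run on simulated data, with results not reported here.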

Additional observations from a re-analysis of the deposited data

Results flagged for a closer look

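On 10 of 232 gene and group pairs examined, 1 array lay far from the other 3 by Dixon's criterion for 4 values; chance alone gives about 1 in 20 such flags. SREBF1 had a signal of 51.5 on GDC0941 IC90 replicate 3, with the others at 54.8 to 55.2. MTOR had a signal of 65.0 on GDC0941 IC90 replicate 1, with the others at 88.1 to 90.1. DEPTOR had a signal of 46.0 on BEZ235 IC90 replicate 4, with the others at 67.5 to 71.9. BAX had a signal of 585 on GDC0941 IC90 replicate 1, with the others at 641 to 650.3. CDC6 had a signal of 430.1 on GDC0941 IC90 replicate 1, with the others at 354 to 363. SKP2 had a signal of 85.4 on BEZ235 IC90 replicate 1, with the others at 95.7 to 96.7. TUBB2B had a signal of 207 on BEZ235 IC90 replicate 4, with the others at 186 to 189. TUBB had a signal of 1986 on GDC0941 IC90 replicate 3, with the others at 2099 to 2115. FANCB had a signal of 27.5 on BEZ235 IC90 replicate 1, with the others at 36.3 to 37.4. PMEL had a signal of 1519.6 on BEZ235 IC90 replicate 2, with the others at 1376 to 1381.

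For the RNA quality measures, BEZ235 IC50 replicate 3 had a GAPDH 3′ to 5′ ratio of 3.44 (others 1.14 to 1.22) and an ACTB ratio of 27.2 (others 2.03 to 2.13), and DMSO replicate 4 had a GAPDH ratio of 1.12 (others 1.16 to 1.17). The IC50 comparison is therefore given with and without that BEZ235 array. None of these values was left out of the IC90 comparison, and what set them apart was not tested.

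For 28 of the genes named above, the difference between BEZ235 and GDC0941 changed between IC90 and max by the interaction term of limma over all genes, where 366 genes were called. The change, max minus IC90 in log2 units, was below 0 for these genes: JUN -0.94 (adjusted p = 5.0e-04), BMF -0.78 (adjusted p = 0.0061), CTSF -0.77 (adjusted p = 0.034), A2M -0.62 (adjusted p = 0.045), TXNIP -0.60 (adjusted p = 1.1e-05), MLANA -0.54 (adjusted p = 5.0e-04), SESN3 -0.44 (adjusted p = 0.031), BCL6 -0.40 (adjusted p = 0.014) and PMEL -0.35 (adjusted p = 0.0059). It was above 0 for these: RHEB 0.32 (adjusted p = 0.0073), SPC25 0.33 (adjusted p = 0.0065), TUBB2A 0.43 (adjusted p = 0.035), SESN2 0.45 (adjusted p = 0.0498), RPS6KA1 0.45 (adjusted p = 0.039), CDC25A 0.45 (adjusted p = 7.0e-04), CDC6 0.48 (adjusted p = 0.021), IL24 0.49 (adjusted p = 0.015), GLA 0.51 (adjusted p = 6.0e-04), CDKN1A 0.52 (adjusted p = 0.04), DDIT3 0.60 (adjusted p = 0.048), FGFBP3 0.65 (adjusted p = 0.013), FANCB 0.68 (adjusted p = 0.0065), TUBB2B 0.73 (adjusted p = 2.4e-04), E2F7 0.77 (adjusted p = 0.0012), CCL2 0.84 (adjusted p = 0.0065), ADAM19 0.84 (adjusted p = 2.0e-04), MFSD2A 0.98 (adjusted p = 2.4e-05) and KCNG4 0.99 (adjusted p = 3.0e-05).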

How the results depend on the processing

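IC90 calls stayed within 1.5 times of 5100 under every alternative run: they were 3518 with a filter at the 60th percentile, where fewer genes were tested and the split turned to 1734 higher and 1784 lower, 5069 and 5103 with pseudocounts of 1 and 64, 5231 with the mean over probe sets, 5250 after quantile normalization, 5094 with the brightest probe set, 6279 on the 8 arrays alone and 6137 without BEZ235 IC50 replicate 3. Leaving out 1 of the 8 IC90 arrays each, the IC90 calls ran from 4559 to 4726 and those at 2-fold or more from 146 to 154. The genes called the same way at IC50 and at max ran from 2279 to 2367 and from 2943 to 3021. The IC50 calls ran from 3945 to 3985 and the max calls from 4304 to 4339. Those 2 comparisons use none of the arrays left out, so only the shared spread could move their counts. Their dependence on single IC50 or max arrays was not tested this way. With the mean over probe sets, the IC50 calls split into 1795 higher and 2249 lower, against 2163 and 1858. The count at 2-fold or more depends on the pseudocount, the filter and the choice of probe set: 338 (172 higher, 166 lower) at a pseudocount of 1, 41 at 64, 74 (22 higher, 52 lower) with the filter at the 60th percentile and 83 with the mean over probe sets, against 146 (58 higher, 88 lower). The genes whose difference changed between IC90 and max numbered 239 with that filter and 814 without BEZ235 IC50 replicate 3, against 366. No IC50 array enters the IC90 or max differences, so without that array they stayed the same and only the shared spread changed. Replicate numbers did not pair the arrays: same-numbered BEZ235 and GDC0941 arrays correlated at -0.03 to 0.11 in their deviations from the group means. With the replicate block, 5050 genes were called (2689 higher, 2361 lower), and no count moved by over 1.5 times.

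IDI1 reversed, to -0.51 (adjusted p = 3.4e-10) when probe sets were averaged and to -1.40 (adjusted p = 1.3e-13) on the brightest one. MTOR was called under 5 settings, at -0.30 to -0.39. BCL2L11 was called when probe sets were averaged, TUBB3 after quantile normalization, and PMVK on the 8 arrays alone and without BEZ235 IC50 replicate 3. Low signals carry wide relative error, and log2(signal + 16) understates their differences.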
